A study of Mus musculus with 6 samples.

Results

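The genes described here are 10 genes of disease-associated microglia (DAM), the state that brain macrophages take up around amyloid, dying cells and myelin debris: Trem2, Tyrobp, Lpl, Cst7, Itgax, Clec7a, Spp1, Gpnmb, Axl and Cd68. They were chosen by symbol, and each of the 10 was found among the 55492 genes of the expression table. All 6 libraries of the series were used, 3 from WT mice and 3 from Npc1-/- mice, both at 16 days of age (P16) and untreated. Npc1-/- mice carried the nih allele of Npc1 on both chromosomes, in every cell of the body, and WT and mutant mice were F1 hybrids from crosses of heterozygous mice on the BALB/cJ and C57BL6/J backgrounds. Whole brains were dissociated, cells bearing the O4 antigen of the oligodendrocyte lineage were pulled out with magnetic microbeads, and poly(A) RNA of each mouse was sequenced on its own. The comparison asks which genes differ in O4-purified cells when NPC1, the lysosomal protein that exports cholesterol, is lost. Microglia are therefore not the cells the purification aimed at, and the 10 genes were read here at the level at which they occur in the O4 fraction.

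TREM2 is a lipid-sensing receptor on microglia. It has no signalling tail of its own and passes its signal through the adaptor DAP12, the product of Tyrobp, to the kinase SYK. As microglia pass into the DAM state, homeostatic genes such as P2ry12 and Tmem119 go down, Tyrobp, Apoe and lysosomal genes go up, and in a later step that needs TREM2 genes for lipid handling and phagocytosis are switched on, among them Lpl, Cst7, Itgax, Clec7a, Spp1, Gpnmb and Axl. Several of the genes are not restricted to microglia. Lpl, for example, is also made by oligodendrocyte progenitors.

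The libraries held between 40500000 and 50250000 fragments, as read from the steps between low values. Levels are given as scaled TPM, TPM (transcript abundance per length, scaled to a fixed total) divided by a size factor per library that ran from 0.727 to 1.3. TPM is per length, so that levels of different genes can be set side by side. Npc1 itself was at 43.5 ± 2.21 scaled TPM in WT and 4.41 ± 0.726 in Npc1-/- (SD, n = 3 each), in accord with the labels. Oligodendrocyte genes dominated each library: the 11 genes listed for the lineage held between 20.1% and 27.3% of all TPM, most of it Mbp, whereas 15 pan-myeloid genes together held between 0.0129% and 0.0475%. The pan-myeloid genes summed to 251 to 367 scaled TPM in WT and to 117 to 233 in Npc1-/-, so the signal from myeloid cells was both small and lower in each mutant library than in each WT library. In bulk libraries, fewer cells of a type and less RNA per cell cannot be told apart. The libraries came from different mice, and Xist, which marks female cells, was above 1 TPM in 1 library only, Npc1-/- replicate 3. For the 10 genes and the lists, values that changed their call, sign or size most without that library are given beside the result.

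Of the 10 genes, 7 reached a mean of 0.5 TPM and entered the test (limma on log2 of scaled TPM plus 0.5, over 15245 genes, called at an adjusted p below 0.05). None of the 7 was called, against 0.813% of all genes tested (0.4% higher and 0.413% lower). Axl and Lpl were lower and Gpnmb was higher in Npc1-/- without overlap between the genotypes, with adjusted p-values between 0.0623 and 0.0680 (limma). With TPM as deposited, without size factors, the same 3 genes were called, as were 6.06% of all genes, and the median of all genes was then -0.33. In all, 3 of the 7 did not overlap between genotypes and the same 3 had an unadjusted p below 0.05, where 27.5% and 22.2% of all genes tested did so. Gpnmb, 1 of the 3, passed the filter through its mutant libraries alone, so its mean had to be higher in them. The log2 fold changes of the 7 had a median of -0.0046, beside 0.01 over all genes tested. The other genes, Cst7, Itgax and Clec7a, stayed below the filter, so counts over the 7 are not counts over the 10.

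**Figure D1:**
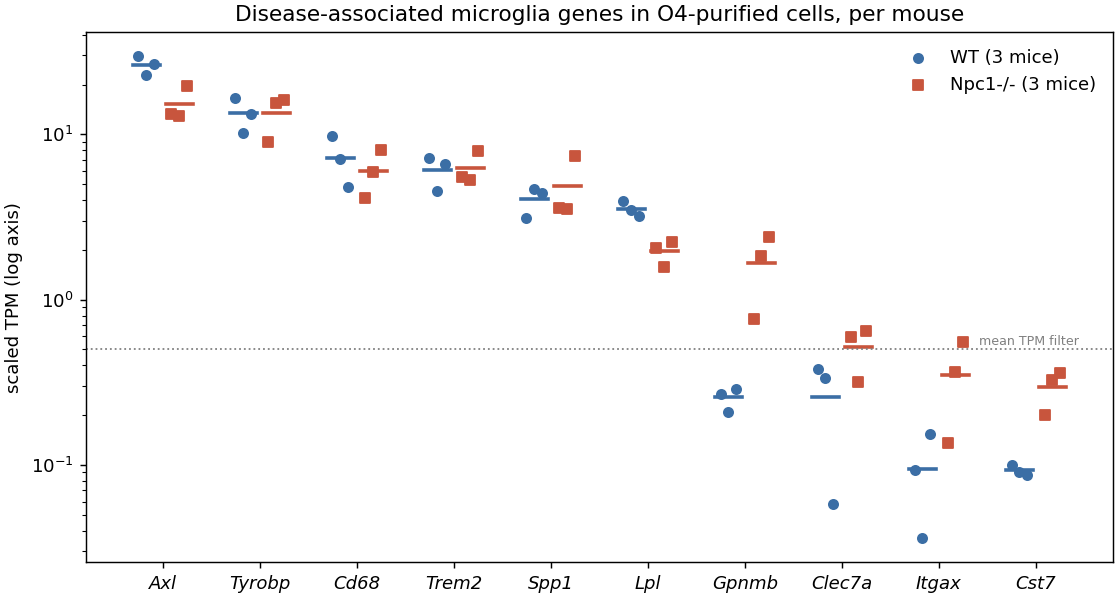
Scaled TPM on a log axis of the 10 genes in each of the 3 WT libraries (circles) and the 3 Npc1-/- libraries (squares), with the mean of each genotype as a bar and the filter of 0.5 on mean TPM as a dotted line (the filter itself used TPM before scaling). The genotypes do not overlap for Axl, Lpl, Gpnmb and Cst7.

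The genes spanned over 2 orders of magnitude in WT, from Axl at 26.3 ± 3.48 scaled TPM to Cst7 at 0.0925 ± 0.007 (SD, n = 3). The order in WT was Axl, Tyrobp, Cd68, Trem2, Spp1, Lpl, Clec7a, Gpnmb, Itgax and Cst7. Axl and Tyrobp, Tyrobp and Cd68, Lpl and Clec7a, and Gpnmb and Itgax were neighbours whose 3 values did not overlap, whereas the others did. In Npc1-/- Axl still stood first at 15.2 ± 3.70 scaled TPM, but it overlapped Tyrobp, and Gpnmb had moved ahead of Clec7a without overlap. Cst7 and Itgax were the lowest in both genotypes.

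Trem2 and Tyrobp, the receptor and its adaptor, were at like levels in both genotypes. Trem2 (chr17:48346401-48354147, plus strand, GRCm38) was at 7.15, 4.52 and 6.59 scaled TPM in the 3 WT mice and at 5.55, 5.28 and 7.95 in the 3 Npc1-/- mice, and the groups overlapped. Its log2 fold change was 0.04 (SE 0.21, limma) with a 95% interval of -0.46 to 0.53, and without Npc1-/- replicate 3 it was -0.13. Tyrobp (chr7:30413760-30417585, plus strand) was at 16.7, 10.2 and 13.3 in WT and at 9.03, 15.4 and 16.1 in Npc1-/-. The genotypes overlapped over most of their range, and the log2 fold change of -0.0046 had an interval of -0.60 to 0.59. With 3 mice per genotype, the values leave room for any difference inside these intervals, in either direction.

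Cd68, a glycoprotein of the lysosomes and endosomes of phagocytes (chr11:69664213-69666153, minus strand), had scaled TPM of 4.80, 7.07 and 9.74 in the WT mice, in order of size, and of 4.13, 5.88 and 8.05 in the mutants. Its log2 fold change was -0.23 (SE 0.29, limma adjusted p = 0.700). Single libraries moved it, to -0.0018 without WT replicate 1, -0.0085 without Npc1-/- replicate 1, -0.48 without WT replicate 3 and -0.45 without Npc1-/- replicate 3. Spp1, which codes for the secreted integrin ligand osteopontin (chr5:104435118-104441050, plus strand), had scaled TPM of 3.10, 4.65 and 4.39 in WT. In Npc1-/- it was at 3.60, 3.54 and 7.40, the last of these in replicate 3. The log2 fold change was 0.18 with the 3 mutant libraries (adjusted p = 0.771, limma) and -0.14 without replicate 3 (adjusted p = 0.707), so its sign rested on that library. The annotation places a second, unconfirmed gene model, Gm42793, over Spp1 on the same strand, and reads of the overlap cannot be told apart.

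Axl was lower in each mutant mouse. The gene (chr7:25757273-25788705, minus strand) codes for a receptor tyrosine kinase of the TAM family, which takes up dying cells through the bridging ligands GAS6 and protein S. It was at 29.6, 22.7 and 26.5 scaled TPM in WT and at 13.2, 12.9 and 19.5 in Npc1-/-. The highest mutant value, that of replicate 3, lay below the lowest WT value. The log2 fold change was -0.79 (SE 0.18, 95% interval -1.20 to -0.37, limma p = 0.00287, adjusted p = 0.0680), and the exact permutation test gave p = 0.1, the smallest that 3 against 3 allows. Without Npc1-/- replicate 3 it was -0.97 with an adjusted p of 0.0312 (limma), so Axl would be called from the remaining 5 libraries, in which 488 of all genes were.

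The partners of Axl pointed in both directions. Gas6, the ligand, was at 65.5 ± 12.4 scaled TPM in WT and 45.1 ± 4.53 in Npc1-/- (log2 fold change -0.52, limma adjusted p = 0.0992), and Pros1, which codes for protein S, was at 10.4 ± 1.32 and 6.24 ± 0.810 (-0.70, adjusted p = 0.0570). Of the other TAM receptors, Mertk was at 10.1 ± 1.31 in WT and 5.43 ± 2.23 in Npc1-/- (-0.90, adjusted p = 0.115), while Tyro3 stood at 48.9 ± 1.22 and 64.2 ± 1.57 (0.39, adjusted p = 0.0557). None of these 4 passed the test, although Pros1 and Tyro3 were called with a filter of 5 TPM, and Pros1 and Mertk with TPM as deposited. All but Gas6 were picked for mention after their values were seen. Among the 16 tested of 17 partners of the 10 genes (TAM ligands and receptors, the integrins and CD44 that bind osteopontin, the proteins that handle LPL, and MITF/TFE factors), 2 were higher and 6 lower at an unadjusted p below 0.05, against 10.6% higher and 11.6% lower of all genes. Their median was -0.20. Itgb1, the most abundant of them and an integrin subunit, was at 157 ± 11.8 in WT and 120 ± 8.73 in Npc1-/- (-0.38, adjusted p = 0.0875). Itgb5, another integrin subunit, was called lower with a filter of 5 TPM, with TPM as deposited, with the replicate number added to the model and without Npc1-/- replicate 3. Over all genes 272 (of 9150 tested), 870, 868 and 377 were called lower in these fits, in the same order. With the filter of 5 TPM, 175 were called higher.

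Lpl was the other gene with lower values in each mutant library. Lipoprotein lipase, its product, frees fatty acids from lipoproteins. The gene (chr8:68880491-68907448, plus strand) was at 3.94, 3.50 and 3.19 scaled TPM in WT and at 2.05, 1.58 and 2.24 in Npc1-/-. The spread within each genotype was small beside the gap between them, with SDs of 0.377 and 0.342. The log2 fold change was -0.72 (SE 0.15, 95% interval -1.08 to -0.36, limma p = 0.00207, adjusted p = 0.0623; exact permutation p = 0.1). Among the proteins that act on LPL, Lmf1, needed for its folding, had a log2 fold change of 0.10 and Gpihbp1, which anchors it on capillary endothelium, one of -0.30, with adjusted p-values of 0.733 and 0.655 (limma).

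Gpnmb, a transmembrane glycoprotein of lysosomes and phagosomes that is abundant in lipid-laden macrophages, showed the widest gap of the 10 genes. The gene (chr6:49036546-49070929, plus strand) was at 0.270, 0.208 and 0.289 scaled TPM in WT and at 0.762, 1.82 and 2.41 in Npc1-/-. All 3 mutant values lay above all WT values, and the mean was 6.51-fold higher (0.256 ± 0.0424 against 1.67 ± 0.834). On the log2 scale with the pseudocount the difference was 1.44 (SE 0.31, 95% interval 0.70 to 2.17, limma p = 0.00235, adjusted p = 0.0639; exact permutation p = 0.1), and without Npc1-/- replicate 3 it was 1.18 (adjusted p = 0.0936). At this low level the log2 value depends on the pseudocount, and was 2.18 with 0.1 and 1.03 with 1. Gpnmb passed the filter through its mutant libraries alone, since its WT values were all below 0.5 TPM, so its difference weighs less than that of a gene well above the filter in both genotypes. At these levels the values rest on few fragments: if all of them came from the longest annotated transcript, the WT libraries held between 21.5 and 37.8 fragments and the mutant libraries between 87.8 and 218, and fewer if from a shorter one.

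The 3 genes below the filter all had a higher mean in Npc1-/-, at low levels. Cst7 codes for cystatin F, an inhibitor of lysosomal cysteine proteases. Its single 986-base transcript (chr2:150570415-150578944, plus strand) allowed whole fragments to be read back, 3, 2 and 2 in the WT libraries and 5, 7 and 7 in the Npc1-/- libraries. Set against library depth and the size factors together, 19 fragments against 7 gave a ratio of 3.14. Its exact 95% interval of 1.26 to 8.84 covers counting error only, and the size factors are taken in it as known. In scaled TPM Cst7 was at 0.10, 0.0904 and 0.0867 in WT and at 0.200, 0.328 and 0.358 in Npc1-/-, without overlap, as in 18.1% of the 28469 genes seen in any library. When the filter was dropped, its log2 fold change was 0.42 (SE 0.09, limma adjusted p = 0.15), in a fit that called 0.0738% of all genes. The exact permutation test gave p = 0.1, the smallest possible.

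Itgax, the integrin subunit CD11c, and Clec7a, the pattern receptor dectin-1, overlapped between genotypes. Itgax (chr7:128129547-128150657, plus strand) was at 0.0926, 0.0362 and 0.154 scaled TPM in WT and at 0.136, 0.363 and 0.550 in Npc1-/-. Clec7a (chr6:129461591-129472779, minus strand) was at 0.378, 0.334 and 0.0578 in WT and at 0.590, 0.316 and 0.647 in Npc1-/-. The lowest mutant library of each gene fell among the WT values, and without the filter the adjusted p-values were 0.334 and 0.465 (limma). If all fragments came from the longest annotated transcript, a library held between 4.11 and 54.8 of Itgax and between 3.77 and 40.0 of Clec7a. The numbers are lower if they came from a shorter one.

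**Figure D2:**
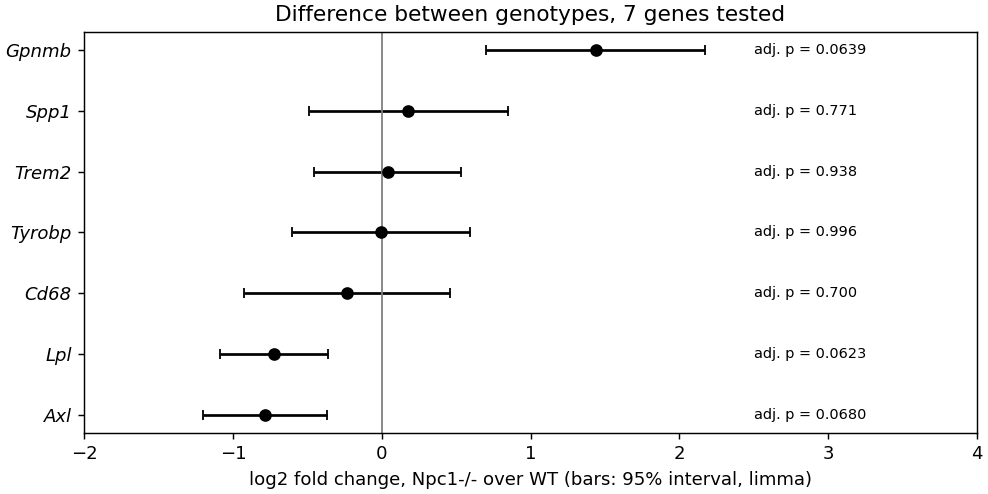
Log2 fold change of scaled TPM plus 0.5 in Npc1-/- over WT for the 7 genes tested, with 95% intervals from limma (3 mice per genotype) and adjusted p-values at the right. The intervals of Gpnmb, Lpl and Axl leave out 0, and no adjusted p is below 0.05.

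The promoters of the genes that separated the genotypes are shown because the members differed in direction. RefSeq promoters (250 bases before to 50 after the annotated start, GRCm38.p6) were given for 8 of the 10 genes, and not for Tyrobp and Lpl. Gpnmb and Cst7, the genes with higher values in Npc1-/-, are set beside Axl, with lower ones. They are written 5′ to 3′ on the gene's strand. Capitals mark matches to TGANTCA, a loose form of the AP-1 motif in which N is any base, searched on both strands.
Gpnmb, chr6:49036268-49036567, plus strand: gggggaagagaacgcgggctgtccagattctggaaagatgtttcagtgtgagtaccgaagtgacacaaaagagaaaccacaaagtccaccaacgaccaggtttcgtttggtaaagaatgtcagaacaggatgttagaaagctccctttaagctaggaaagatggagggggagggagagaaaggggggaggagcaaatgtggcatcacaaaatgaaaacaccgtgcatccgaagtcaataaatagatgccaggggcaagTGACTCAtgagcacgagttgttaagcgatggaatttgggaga
Cst7, chr2:150570165-150570464, plus strand: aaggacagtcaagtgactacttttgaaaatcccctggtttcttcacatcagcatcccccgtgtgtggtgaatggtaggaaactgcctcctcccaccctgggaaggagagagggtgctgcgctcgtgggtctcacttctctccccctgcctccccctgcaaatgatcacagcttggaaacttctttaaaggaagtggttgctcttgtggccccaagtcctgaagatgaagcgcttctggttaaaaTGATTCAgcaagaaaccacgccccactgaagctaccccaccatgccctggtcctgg
Axl, chr7:25788684-25788983, minus strand: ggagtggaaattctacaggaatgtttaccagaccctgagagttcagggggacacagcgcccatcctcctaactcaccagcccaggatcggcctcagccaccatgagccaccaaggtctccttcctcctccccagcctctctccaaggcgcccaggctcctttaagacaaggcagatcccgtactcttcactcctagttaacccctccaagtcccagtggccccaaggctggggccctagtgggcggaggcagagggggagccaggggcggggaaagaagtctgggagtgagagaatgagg
The match in Gpnmb began 8 bases after the annotated start and that in Cst7 6 bases before it, and Axl held none. The 8 genes had 10 promoters in the table, since Spp1 and Clec7a had a pair each. In all, 5 of the 10 promoters held TGANTCA (those of Gpnmb, Cst7, Itgax, Trem2 and Cd68, the last with 2 matches), while 7.81% of 32851 promoters did so. These 5 include genes that differed little between genotypes. The base at N was C or G in Gpnmb, Itgax and Cd68, but T in Cst7 and A in Trem2. GAGGAAGT, a sequence bound by the myeloid factor PU.1 and its ETS relatives, was found in 1 of the 10, a promoter of Spp1, and in 3.20% of all promoters. The E-box CACGTG and the M-box variant TCATGTG of MITF and TFE factors were in none of the 10, and in 7.15% and 3.77% of all promoters. No match overlapped one of another motif. A match describes letters in this window and is not a binding site, and no binding was measured in these libraries.

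Other DAM genes and the signalling chain below TREM2 were read from lists of their own. Of 24 further DAM signature genes, all tested, Fabp5 alone was called, a fatty acid binding protein that cells of the oligodendrocyte lineage also make. Fabp5 rose from 167 ± 13.4 to 299 ± 20.4 scaled TPM (log2 fold change 0.84, SE 0.10, limma adjusted p = 0.0364). That call was lost when any 1 library other than Npc1-/- replicate 3 was left out, with TPM as deposited, without the filter and without the trend in limma. Fabp5, Cd63, Lgals3 and Csf1 were the 4 of the 24 that were higher at an unadjusted p below 0.05, and none was lower, where 10.6% of all genes were higher and 11.6% lower. Lgals3, the lipid- and sugar-binding galectin of phagocytes, went from 1.79 ± 0.442 to 3.93 ± 0.968 (0.95, adjusted p = 0.0651), and Cd63, a tetraspanin of late endosomes, from 78.2 ± 9.68 to 118 ± 7.27 (0.59, adjusted p = 0.0557). Cd63 was called, as higher, without Npc1-/- replicate 3. The list's median was 0.04, and its most abundant genes, Fth1 and Apoe, had log2 fold changes of 0.53 and -0.39 (adjusted p = 0.496 and 0.298, limma). The 9 tested of 11 genes of TREM2-DAP12 signalling had a median of -0.35, with none called and 3 lower at an unadjusted p below 0.05. Among them Vav1, an exchange factor that acts after SYK, was at 1.77 ± 0.340 in WT and 0.824 ± 0.215 in Npc1-/- (-0.78, adjusted p = 0.0819). Adam10 and Adam17, the proteases that shed the TREM2 ectodomain and the most abundant of the list, had log2 fold changes of -0.20 and -0.18 (adjusted p = 0.442 and 0.351). Lgals3, Cd63, Csf1 and Vav1 were picked after their values were seen.

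**Figure D3:**
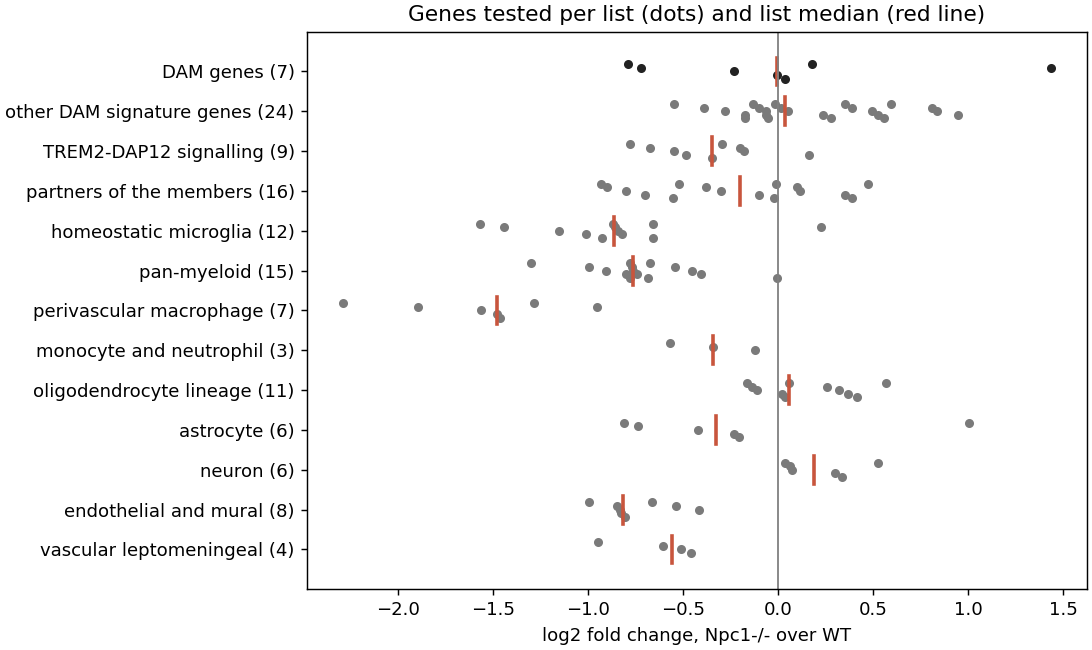
Log2 fold change (Npc1-/- over WT) of every tested gene of the 10 DAM genes and of 12 other lists, each gene a dot and each list's median a red line, with the number tested in brackets. The DAM genes lie around 0 with Gpnmb far to the right, whereas the myeloid, perivascular macrophage and vascular lists lie to the left.

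Genes of other macrophage states had mostly lower values in Npc1-/-. Of the 12 homeostatic microglia genes, 11 were lower at an unadjusted p below 0.05, against 11.6% of all genes tested. Their median was -0.86, and Tmem119 was called, falling from 11.9 ± 2.53 to 4.11 ± 1.24 scaled TPM (log2 fold change -1.44, SE 0.22, limma adjusted p = 0.0442, a call lost when any 1 library other than Npc1-/- replicate 3 was left out, without the filter and without the trend). P2ry12, a purinergic receptor of resting microglia, had a log2 fold change of -1.01 (adjusted p = 0.0777). Of the 15 pan-myeloid genes, 12 were lower at that threshold, none was called and the median was -0.76, with C1qa at -0.78 (adjusted p = 0.169) and Csf1r, the receptor that keeps microglia alive, at -1.30 (adjusted p = 0.0580). All 7 perivascular macrophage genes were lower at an unadjusted p below 0.05 and 4 fell by the test, against 11.6% and 0.413% of all genes tested. Of these, Mrc1 had a log2 fold change of -1.90, Cbr2 of -1.48, F13a1 of -1.56 and Cd163 of -2.29, with adjusted p-values of 0.0364, 0.0272, 0.0364 and 0.0102 (limma). All 4 were low in Npc1-/-, with means of 0.970, 1.79, 0.655 and 0.161 scaled TPM in the same order. Cd163 was at 2.74 in WT and passed the filter through its WT libraries alone, so its mean had to be lower in Npc1-/-. The same holds for Ms4a7 of this list (means of 1.02 in WT and 0.292 in Npc1-/-). It also holds for Slc2a5 of the homeostatic list (0.861 and 0.204). The counts of lower genes in these lists, here and in the other fits, include such genes. The list's median of -1.48 depended on the pseudocount, and was -1.90 with 0.1 and -1.24 with 1. With 1 library left out, the number called of the 7 was 0 without WT replicate 3 or Npc1-/- replicate 2, 1 without Npc1-/- replicate 1, 2 without WT replicate 1 or 2, and 5 without Npc1-/- replicate 3. In the last of these fits 377 of the 15245 genes tested were called lower. With TPM as deposited, which shifts all genes down, 9 of the 12 homeostatic, 11 of the 15 pan-myeloid and all 7 perivascular genes were called lower. In that setting 870 of the 15245 genes tested were called lower. Without Npc1-/- replicate 3, Cx3cr1 and Selplg of the homeostatic list were called lower beside Tmem119. Without that library 3 pan-myeloid genes were called (Cd53, Csf1r and Itgam), and with a filter of 5 TPM Csf1r was. The medians of all 3 lists stayed negative under each scaling tried.

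Marker genes of cells other than macrophages were read in the same way. The 8 endothelial and mural genes summed to 691 to 1012 scaled TPM in WT and to 469 to 550 in Npc1-/-. Their median was -0.82, and 7 were lower at an unadjusted p below 0.05, against 11.6% of all genes tested. The most abundant, Cldn5 and Rgs5, were at -0.54 and -0.82 (adjusted p = 0.138 and 0.0621). The 4 vascular leptomeningeal genes had a median of -0.56, with Col3a1 and Dcn at -0.95 and -0.46 (adjusted p = 0.0994 and 0.323). The 6 astrocyte genes had a median of -0.33, the most abundant being Aldoc at -0.21 and Gfap at 1.01 (adjusted p = 0.708 and 0.108), and the 6 neuron genes one of 0.19, with Snap25 and Stmn2 at 0.30 and 0.53 (adjusted p = 0.610 and 0.192). The 11 oligodendrocyte lineage genes had a median of 0.06, with Mbp, a myelin protein, at 0.57 (adjusted p = 0.765). Of 7 monocyte and neutrophil genes 3 were tested, with a median of -0.34. Its most abundant genes, Ly6c2 and S100a9, were at -0.57 and -0.12 (adjusted p = 0.507 and 0.930), and Ly6g was listed at 0 in each library. No gene of these 6 lists was called. The endothelial and mural list was the one of these that turned most on the setting: 7 of its 8 genes were called lower with TPM as deposited, 5 with a filter of 5 TPM, 2 after quantile normalization and 4 without Npc1-/- replicate 3. Over all genes 870, 272 (of 9150 tested), 144 and 377 were called lower in these fits, in the same order. Of the astrocyte genes, 2 were called lower with TPM as deposited and with a filter of 5 TPM, and 1 leptomeningeal gene, Col3a1, was with TPM as deposited. The neuron median was -0.08 without Npc1-/- replicate 3, and the oligodendrocyte median was -0.09 after quantile normalization, so neither list has a settled direction. The part that these cell types had in the values of the 10 genes was not tested.

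The 7 tested genes were also set against the pan-myeloid genes of the same library. Each level was taken as log2 of scaled TPM plus 0.5, minus the mean of the 15 pan-myeloid genes. On that scale Trem2 was at -0.75, -0.90 and -0.59 in WT and at 0.29, -0.28 and -0.0071 in Npc1-/-, a difference of 0.75. Tyrobp differed by 0.70, Cd68 by 0.47, Spp1 by 0.88 and Gpnmb by 2.14. For these 5 genes the mutant values lay above the WT values without overlap (exact permutation p = 0.1 each, two-sided, the smallest possible). For Axl and Lpl the genotypes overlapped, with differences of -0.08 and -0.02 (exact permutation p = 0.8 and 1.0), so the gap of both genes was close to the mean gap of the pan-myeloid genes. The endothelial and mural genes had a similar median log2 fold change of -0.82, and which cells made Axl and Lpl was not tested. A shift upward on this scale was common, since 57.2% of all genes tested lay above the WT values and 0.243% below them, with a median difference of 0.71. The scale also spreads its own genes: each pan-myeloid gene against the other 14 differed by -0.63 to 0.75, with 3 higher and 3 lower without overlap. Trem2, Tyrobp and Cd68 lay within that range. Its upper end was a single gene, Aif1, and the next was Ptprc at 0.32. The range was computed from all 6 libraries with a pseudocount of 0.5 only, so values from other settings cannot be placed in it or above it. Trem2 was at 0.89 without Npc1-/- replicate 2 and at 0.82 without WT replicate 3. Spp1 at 0.88 lay above the range, but was lower, at 0.60 without WT replicate 1 and at 0.74 without Npc1-/- replicate 3. Gpnmb at 2.14 lay above the range, and was at 2.96 with a pseudocount of 0.1 and at 1.68 with 1. It had passed the filter through its mutant libraries alone and so had to be higher in them. Against the homeostatic microglia genes the differences were 0.92 for Trem2, 0.88 for Tyrobp, 0.65 for Cd68, 1.06 for Spp1, 2.32 for Gpnmb, 0.16 for Lpl and 0.09 for Axl.

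**Figure D4:**
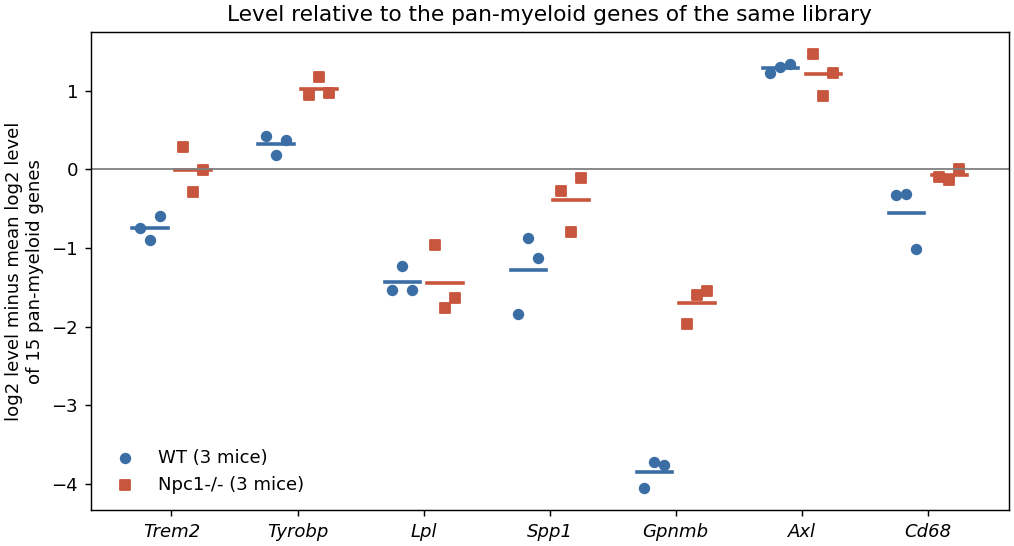
Log2 of scaled TPM plus 0.5 of the 7 tested genes, minus the mean of the 15 pan-myeloid genes, in the 3 WT libraries (circles) and the 3 Npc1-/- libraries (squares), with the mean of each genotype as a bar. The mutant libraries lie above the WT libraries for 5 genes, with the widest gap for Gpnmb, and overlap them for Lpl and Axl.

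The genes most like each member across the 6 libraries were searched among all other genes with a mean of at least 1 TPM (Pearson's r on the log2 scale, a description over 6 libraries that also differ in genotype, depth and cell make-up). The most alike were Gnpnat1 (r = 0.984) and Kif3b (0.979) for Trem2, Mif-ps (0.983) for Tyrobp, and Btbd6 (0.981) and Ppm1f (0.964) for Cd68. They were Marveld2 and Tbx2 for Axl (both 0.997), Luzp1 and Itga1 for Lpl (both 0.997), Rab22a and Tollip for Spp1 (both 0.993), and Eif3k (0.996) and Efcc1 (0.993) for Gpnmb. Such values are common with 6 libraries: the 100th gene in the order still had an r between 0.822 and 0.975. Of the 14 pan-myeloid genes searched, 1 was among the 100 genes most like Axl and none among those most like the other 6, and of the 11 homeostatic microglia genes 2 were among those of Axl and again none for the other 6. The 100 were taken from 13688 genes (13689 for Gpnmb). That share is so small that finding none of 14 or of 11 genes says little.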

How the data were processed

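Poly(A) RNA of O4-purified brain cells from 3 WT and 3 Npc1-/- mice was sequenced, 1 library per mouse. Groups and replicate numbers came from the sample labels. The study's methods name bbduk, STAR on GRCm38, featureCounts and DESeq2, whereas the submitters' processing notes list cutadapt 2.3, FastQC 0.11.8, STAR 2.7.8a, RSEM 1.3.3 and MultiQC 1.7. Which of them made each value, and whether strand was used, is not given in the sources used here. The authors deposited TPM and FPKM of 55492 genes with 2 decimals, both without counts. Depth was recovered from steps between low values of genes with 1 transcript, of which 82.0% to 84.2% were within 0.15 of a whole fragment.

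TPM was divided by median-of-ratios size factors, 0.5 was added and log2 taken. The 15245 genes whose TPM averaged 0.5 or more entered a limma fit (limma 3.58.1, R 4.3.3, trend, Benjamini-Hochberg over all genes tested) with genotype as the only factor. A gene was called when its adjusted p was below 0.05 and its log2 fold change 0.1 or more in size. Single values were compared by two-sided exact permutation tests. The model and the depth estimate were tested on simulated data. The members and lists were chosen with earlier results of these data known. Named genes were the members, Npc1, called list genes, the 2 most abundant genes per list and the 2 genes most like each tested member, and other names are marked in the text. Some genes that this rule names are not reported here. Alternatives were FPKM, TPM without size factors, quantile normalization, size factors from genes of at least 5 TPM, pseudocounts of 0.1 and 1, no filter or one of 5 TPM, limma without trend or with robust estimation, the replicate number as a block, the homeostatic list as reference, and each library left out. Positions came from GENCODE M21 on GRCm38 and promoters from RefSeq on GRCm38.p6.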

Additional observations from a re-analysis of the deposited data

How the results depend on the processing

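None of the 7 tested genes was called in the analysis as reported, and 3 (Axl, Lpl and Gpnmb) were called under each of 2 alternatives, TPM as deposited and the replicate number as a block. Of these, Gpnmb had passed the filter through its mutant libraries alone, so its mean had to be higher in them. With each library left out in turn the number called lay between 0 and 1. In the paired fit (block) the adjusted p-values (limma) were 0.0290 for Axl, 0.0364 for Lpl and 0.0325 for Gpnmb, and 13.2% of all genes tested were called (2011), against 124 without it. With the block, 6 lower and 2 higher partner genes were called (Gas6, Pros1, Mertk and Tyro3 among them), 3 of the further DAM genes (Cd63, Fabp5 and Lgals3), 3 homeostatic, 2 pan-myeloid, 7 perivascular, 6 endothelial and mural, 3 astrocyte, 1 neuron, 1 oligodendrocyte and 1 leptomeningeal gene. Same-numbered WT and Npc1-/- libraries deviated from their group means with correlations of 0.414, 0.0602 and 0.326 (mean 0.267). Not all were above 0.1, the limit chosen for using the block, and the labels name no shared litter. Whether same-numbered samples came from the same litter is therefore not known. TPM as deposited lowered the median of all genes to -0.33 and called 924 genes, 54 higher and 870 lower, against 61 and 63. On that scale Trem2 was at -0.31 and Spp1 at -0.16, below 0 but above the shift. Over all genes 240 were called after quantile normalization (96 higher, 144 lower), 192 with size factors from genes of at least 5 TPM (73 higher, 119 lower), 447 with a filter of 5 TPM, which left out Lpl, Spp1 and Gpnmb, 21 without a filter, 42 without trend, and between 5 and 488 with 1 library left out. Tyrobp turned to 0.012 after quantile normalization. With each library left out the log2 fold change ran from -0.18 to 0.25 for Tyrobp, from -0.14 to 0.16 for Trem2, from -0.14 to 0.34 for Spp1, from -0.48 to -0.0018 for Cd68 and from 1.18 to 1.78 for Gpnmb. Relative to the myeloid genes Lpl turned to 0.0016 with FPKM, 0.025 with a pseudocount of 1 and 0.16 against the homeostatic list (-0.26 to 0.14 with a library left out), and Axl to 0.094 against the homeostatic list (-0.21 to 0.060). The cause of these changes was not tested. Axl, Lpl and Gpnmb kept their direction under each alternative in which they were tested, with adjusted p-values from 0.0174 to 0.152, 0.0364 to 0.154 and 0.0291 to 0.148, and with a library left out up to 0.230, 0.207 and 0.223.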
